A study of Mus musculus with 4 samples.

Results

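The multipotent progenitors described here are bone marrow cells that carry the stem and progenitor antigens CD117 (Kit) and Sca1 together with CD150 and CD48. They were picked by surface antibody counts: CD117 of at least 125, Sca1 of at least 33, CD150 of at least 14 and CD48 of at least 378, after a quality filter of at least 500 genes, at least 1000 gene UMIs (unique molecular identifiers, one per captured RNA molecule) and at most 10% mitochondrial UMIs. Cells with 20 or more UMIs per 10000 from the B-lineage genes Cd79a, Cd79b, Vpreb1, Vpreb3, Igll1 and Ebf1 were left out. This gave 392 cells out of 34398 barcodes in the series: the control library gave 172, the Mll3-deleted one 153 and the Mll4-deleted one 67. They were 392 of the 19758 quality-filtered barcodes of these 3 libraries, and of 2138 CD117+ Sca1+ cells below the B-gene limit.

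The study sorted Kit+ CD45.2+ marrow cells of mice 10 weeks after transplantation and sequenced their RNA together with barcoded antibodies (CITE-seq, 10x Genomics 3′ chemistry). Its title asks whether the histone methyltransferases MLL3 and MLL4, encoded by Kmt2c and Kmt2d, redundantly uphold stem and myeloid identity and hold back B-cell priming. There was 1 library for each of 4 groups: an undeleted control, single deletions of Mll3 and of Mll4, and the joint deletion of Mll3/4. The labels name no deleting recombinase or allele, no number of animals per library and no meaning for the hashtag antibodies. All groups share the transplantation setting, so every cell had been through a transplant recipient. With 1 library per group, no test between deletions was possible: ratios between libraries carry intervals that cover counting error only. Comparisons between antibody gates were tested with edgeR over the 3 libraries, with the library as a block, since RNA took no part in drawing the gates apart from the B-gene limit. These tests treat libraries of different genotype as replicates of the contrast between gates. The libraries held 36413830 to 174795636 gene UMIs.

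Long-term blood stem cells of the mouse are classically CD150+ CD48-. Gain of CD48 on CD150+ cells marks multipotent progenitors with a shorter life and a bias to megakaryocytes and red cells in many studies, whereas CD150- CD48+ cells hold myeloid and lymphoid-primed progenitors. CD48 and CD150 are both receptors of the SLAM family on the cell surface.

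Platelet genes set the CD150+ CD48+ cells apart from CD150- CD48+ cells in these libraries, and the windows before the RefSeq start of 4 of them are shown for that reason. These 4 were picked from the megakaryocyte list after their values and motif matches were seen, so that each holds a match is no finding. Each is the 250 bases before the annotated transcription start (RefSeq annotation, build GRCm38.p6), 5′ to 3′ on the gene's strand. Capitals mark matches to the core letters bound by GATA factors (AGATAA, or TTATCT on the other strand) and by ETS factors (GGAAGT, or ACTTCC). The windows lie at chr5:90772185-90772434 (plus strand) for Pf4, chr11:102469884-102470133 (minus) for Itga2b, chr6:87777820-87778069 (plus) for Gp9 and chr16:30310782-30311031 (minus) for Gp5. The GENCODE annotation also has an Itga2b transcript that starts further upstream, at 102470122, so most of that window lies inside the GENCODE gene.
Pf4: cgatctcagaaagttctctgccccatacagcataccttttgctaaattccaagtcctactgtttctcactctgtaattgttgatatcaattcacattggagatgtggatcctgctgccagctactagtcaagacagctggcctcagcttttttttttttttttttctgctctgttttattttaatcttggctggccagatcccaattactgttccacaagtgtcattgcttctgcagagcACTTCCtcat
Itga2b: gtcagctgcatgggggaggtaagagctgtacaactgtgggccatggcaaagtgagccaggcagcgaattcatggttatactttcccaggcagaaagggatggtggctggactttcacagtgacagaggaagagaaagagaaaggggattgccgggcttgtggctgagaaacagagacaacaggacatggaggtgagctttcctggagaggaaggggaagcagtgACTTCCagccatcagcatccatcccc
Gp9: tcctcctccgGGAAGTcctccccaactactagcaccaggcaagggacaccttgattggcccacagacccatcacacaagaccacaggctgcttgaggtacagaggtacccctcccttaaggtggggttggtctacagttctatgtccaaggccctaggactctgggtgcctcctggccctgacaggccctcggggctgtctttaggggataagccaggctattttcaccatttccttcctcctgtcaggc
Gp5: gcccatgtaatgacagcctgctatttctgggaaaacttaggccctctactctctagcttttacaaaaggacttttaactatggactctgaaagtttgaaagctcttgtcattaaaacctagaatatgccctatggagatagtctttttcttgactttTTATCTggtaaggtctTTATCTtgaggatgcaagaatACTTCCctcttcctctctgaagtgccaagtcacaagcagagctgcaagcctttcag
Gp5 held 2 GATA cores and 1 ETS core, and each of the other windows held 1 ETS core. Over 32851 windows of 27025 genes, 9.99% held the GATA core and 19.7% the ETS core. Of the megakaryocyte list, 16 of 20 genes had a window, of which 3 held the GATA core and 5 the ETS core. Of the erythroid list, 4 of 13 genes with a window held the GATA core and 2 the ETS core. In the granulocyte-monocyte list 7 of 14 windows held the ETS core, among them Mpo, Elane, Prtn3 and Ctsg. The stem cell list had no GATA core and 1 ETS core (Meis1) in 13 windows. These are matches of letters only.

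The transcripts of the gate's own antigens were read as a check of the label. Ly6a, which encodes Sca1, stood at 32.3 CPM (its UMIs per 1000000 gene UMIs summed over the cells of a gate) in the control cells, 12.4 in the Mll3-deleted and 21.6 in the Mll4-deleted cells. Slamf1 (CD150) stood at 17.6, 11.1 and 13.3 CPM, Cd48 at 125, 57.5 and 111 CPM, and Kit at 189, 134 and 221 CPM. All 4 transcripts were present in each library. Slamf1 was 1.12 to 2.31 CPM in CD150- CD48+ cells, and Cd48 was 6.80 to 17.9 CPM in CD150+ CD48- cells, so both transcripts follow the antibody gates. Ly6a was lower in the progenitors than in both these gates in every library. It was 89.6, 65.0 and 56.7 CPM in CD150+ CD48- cells and 46.7, 35.5 and 80.7 CPM in CD150- CD48+ cells. Against CD150+ CD48- cells the log2 difference of Ly6a was -1.82 (edgeR adjusted p = 4.5e-08). Among CD117+ Sca1+ CD48+ cells whose CD150 counts lay within 1.5-fold above the limit, Slamf1 was 2.35, 1.26 and 6.39 CPM, against 5.96, 0 and 0 CPM within 1.5-fold below it (47, 21 and 18 cells above; 24, 25 and 15 below). In CD150+ cells within the same range above the CD48 limit, Cd48 was 82.4, 40.1 and 31.9 CPM, against 50.6, 20.9 and 0 CPM just below it (40, 45 and 11 cells above; 39, 31 and 3 below). Slamf1 thus showed no step at the CD150 limit in control, whereas Cd48 was higher above its limit in each library.

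Barcodes with both hashtag antibodies were frequent among the progenitors, and the main list counts below are given with and without them. Of the CD150+ CD48+ cells 18.0% (31 cells, exact 95% interval 12.6% to 24.6%) in control, 40.5% (62 cells, 32.7% to 48.7%) in the Mll3-deleted and 25.4% (17 cells, 15.5% to 37.5%) in the Mll4-deleted library were above both hashtag thresholds. The shares were 1.17%, 5.05% and 6.25% in CD150+ CD48- cells, 5.51%, 12.7% and 17.1% in CD150- CD48+ cells, and 3.55%, 5.66% and 6.66% of all filtered barcodes. Both-hashtag progenitors had medians of 26626, 37056.5 and 9996 UMIs against 16840, 21154 and 6782.5 in those with 1 hashtag. Cells with the highest scores from Scrublet, a doublet caller, made up 26.2%, 45.8% and 22.4% of the progenitors, against 6.25%, 6.31% and 5.0% of CD150+ CD48- cells and 9.86%, 15.1% and 11.0% of CD150- CD48+ cells. Leaving the both-hashtag barcodes out left 282 of the 392 cells. Doublets of cells with the same hashtag are not removed in this way, so 1-hashtag cells are not all single cells. Of 141, 91 and 50 progenitors with 1 hashtag, 115, 71 and 46 were also without a highest Scrublet score. No barcode was that of a progenitor in more than 1 library, and pairs of libraries shared 9 to 24 barcodes in all.

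**Figure D1:**
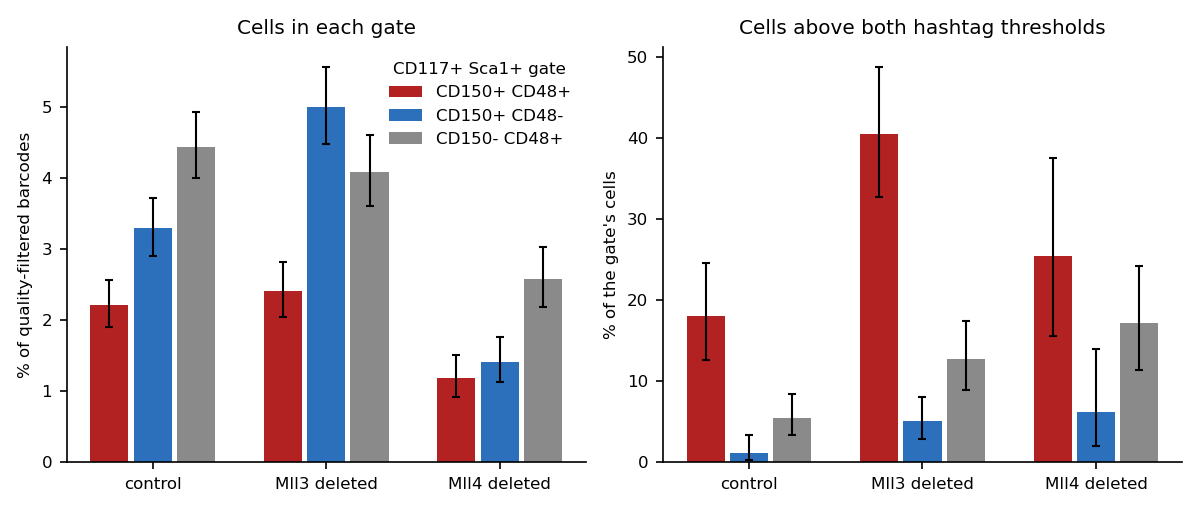
Left, cells of 3 CD117+ Sca1+ gates as a percentage of quality-filtered barcodes in the control, Mll3-deleted and Mll4-deleted libraries. Right, percentage of each gate's cells above both hashtag thresholds. Bars are shares and lines exact 95% binomial intervals. The CD150+ CD48+ gate has the highest both-hashtag share in every library, up to 40.5%.

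The Mll4-deleted library was shallower: its progenitors had a median of 8093 UMIs per cell, against 18112 in control and 25080 in the Mll3-deleted library. It also had 0 Xist UMIs in the progenitors, where the other libraries had 1618 and 1168 CPM, while Y-linked genes had 227 to 498 CPM in all 3, so that sex and deletion cannot be told apart in it. Its neutrophil RNA was high throughout: 9 neutrophil markers summed to 178970 CPM in its other filtered cells, against 62698 and 42396. Kmt2c stood at 67.2 CPM in control progenitors, 26.9 in the library labelled Mll3 deleted and 74.6 in that labelled Mll4 deleted. Kmt2d stood at 28.8, 24.1 and 24.9 CPM, a log2 ratio of -0.20 (-1.09 to 0.57) for the library labelled Mll4 deleted. The 3′ reads may lie outside the deleted part of either gene, so these levels do not settle the labels.

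The progenitors were about as frequent in the control as in the Mll3-deleted library and less frequent in the Mll4-deleted one, as a share of filtered barcodes. They made up 2.21% (exact 95% binomial interval 1.90% to 2.57%) of filtered barcodes in control, 2.41% (2.05% to 2.82%) with Mll3 deleted and 1.19% (0.920% to 1.5%) with Mll4 deleted. By the same gates the Mll3/4-deleted library held 10 such cells, 0.135% (0.0648% to 0.248%). As a share of CD117+ Sca1+ cells they were 19.7%, 17.0% and 18.4%. The intervals cover counting error only. Antibody counts were not normalised between libraries, and with limits set at the control percentile in each library the Mll4-deleted share was 4.21%, above the control share. The order of the Mll4-deleted library therefore rests on fixed limits.

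Antibodies outside the gate differed in level between the gates. CD41, the platelet integrin encoded by Itga2b, had medians of 33, 19 and 35 counts per cell in the progenitors, 46.5, 17 and 37.5 in CD150+ CD48- cells and 9, 4 and 9 in CD150- CD48+ cells. CD34, an antigen of early progenitors, had medians of 37.5, 49 and 23 counts, against 18, 23 and 23 in CD150+ CD48- and 63, 92 and 49 in CD150- CD48+ cells. CD16/32, the Fc receptor of granulocyte and monocyte progenitors, had medians of 29, 65 and 32 counts, above both CD150+ CD48- (16, 22 and 15) and CD150- CD48+ cells (19, 28 and 29). Among 1-hashtag cells the CD16/32 medians were 24, 49 and 19 in the progenitors, 16, 20 and 15 in CD150+ CD48- and 18, 22 and 20 in CD150- CD48+ cells, so the Mll4-deleted progenitors were then not above CD150- CD48+ cells. With 3 libraries an exact permutation test of pairs cannot go below p = 0.25, so none was run on these medians.

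Against CD150+ CD48- cells, the progenitors had lower stem cell and interferon response transcripts and higher erythroid, granulocyte-monocyte, basophil and mitotic transcripts. Of 10780 genes tested, 1122 (10.4%) were higher and 1045 (9.69%) lower in the progenitors, 20.1% in either direction (edgeR quasi-likelihood, Benjamini-Hochberg adjusted p under 0.05). The counts were 466 and 410 without the control library, 364 and 310 without the Mll3-deleted library, and 1355 and 1269 without the Mll4-deleted library. The median log2 difference over all genes tested was -0.01. Lists were chosen with earlier results of these data known, and their counts are descriptions beside these background shares.

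All 18 stem cell genes that could be tested, of 20 listed, were lower in the progenitors than in CD150+ CD48- cells, with a median log2 difference of -1.45. Without both-hashtag cells, where 9.33% of all genes were higher and 8.10% lower, 17 of 18 were lower, all but Tek. Mecom, a transcription factor needed for stem cell maintenance, was 40.2, 25.8 and 31.5 CPM in the progenitors (control, Mll3 deleted, Mll4 deleted) and 100, 95.5 and 186 CPM in CD150+ CD48- cells, a log2 difference of -1.70 (SE 0.15, edgeR adjusted p = 2.1e-08). Hlf, a stem cell transcription factor, was 142, 57.5 and 39.8 CPM against 257, 182 and 259 CPM, a log2 difference of -1.40 (SE 0.16, edgeR adjusted p = 9.8e-07). Procr, which encodes the stem cell antigen CD201, was 13.7, 3.36 and 3.32 CPM against 38.6, 22.2 and 27.2 CPM, a log2 difference of -1.99 (SE 0.23, edgeR adjusted p = 1.7e-06). For each of the 3 genes every progenitor value lay below every value of the CD150+ CD48- cells. Cdkn1c, an inhibitor of cell division, also fell, by 1.43 on the log2 scale. The other testable members fell by 0.50 (Hoxa9) to 2.69 (Clec1a) on the log2 scale. Mllt3, Meis1, Esam and Vwf were among them.

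Platelet genes lay nearer their level in CD150+ CD48- cells: 5 of 17 testable megakaryocyte genes were lower, none higher, with a median log2 difference of -0.36. Without both-hashtag cells 5 of 15 were lower (median -0.43). Pf4, the platelet chemokine, was 480, 228 and 217 CPM in the progenitors and 313, 614 and 320 CPM in CD150+ CD48- cells, and the ranges overlapped (log2 difference -0.41, edgeR adjusted p = 0.18). Itga2b was 75.1, 34.5 and 79.6 CPM against 60.1, 55.2 and 81.6 CPM (-0.12, edgeR adjusted p = 0.63). Those that passed were Cavin2, Fli1, Gp9, Rab27b and Selp. Cavin2, a membrane coat gene used as a platelet marker, was 34.1, 24.9 and 24.9 CPM against 48.0, 85.6 and 49.9 CPM (log2 difference -1.16, edgeR adjusted p = 7.4e-05).

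Erythroid genes were higher in the progenitors for 13 of 16 tested, with a median log2 difference of 1.44, and 12 of 15 without both-hashtag cells. Gata1, the master factor of red cells and megakaryocytes, was 38.2, 48.8 and 51.4 CPM in the progenitors and 17.4, 23.1 and 13.6 CPM in CD150+ CD48- cells, a log2 difference of 1.19 (SE 0.15, edgeR adjusted p = 5.9e-06). Klf1, an erythroid transcription factor, was 45.3, 81.9 and 61.3 CPM against 11.0, 15.9 and 6.80 CPM, a log2 difference of 2.32 (SE 0.16, edgeR adjusted p = 6.5e-10). Car1, an erythroid carbonic anhydrase, was 716, 1212 and 862 CPM against 171, 199 and 79.4 CPM, a log2 difference of 2.55 (SE 0.14, edgeR adjusted p = 1.5e-11). For these genes the groups did not overlap in any library. The erythropoietin receptor Epor, Ermap, Rhd, Tfrc and Aqp1 rose too. The globin gene Hbb-bt went the other way, at 19.9, 20.9 and 8.29 CPM against 66.4, 76.9 and 186 CPM (log2 difference -2.04, edgeR adjusted p = 8.7e-08). Slc4a1, a late red cell gene, had 0 UMIs in the progenitors of all 3 libraries and Alas2 had them only in the Mll3-deleted library (0.354 CPM).

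**Figure D2:**
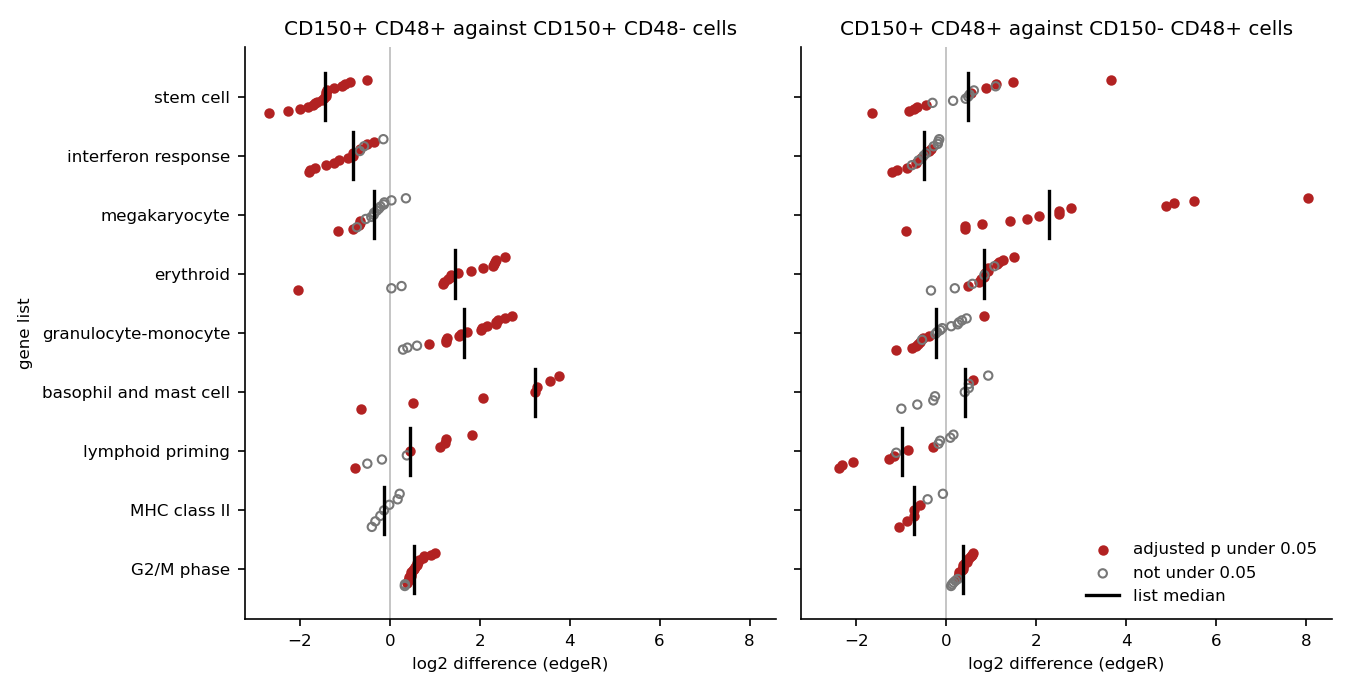
Log2 difference of each tested gene of 9 lists between CD150+ CD48+ progenitors and CD150+ CD48- cells (left) or CD150- CD48+ cells (right), from edgeR over 3 libraries. Filled points have an adjusted p under 0.05 and black lines are list medians. The stem cell list lies wholly below 0 on the left (median -1.45) and the megakaryocyte list mostly above 0 on the right (median 2.28).

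Granulocyte-monocyte genes were higher for 15 of 18 tested (median log2 difference 1.65). Without both-hashtag cells 11 of 16 were higher (median 1.30), and without the highest doublet scores as well, where 6.54% of all genes were higher, 8 of 14 (median 0.85). Mpo, the peroxidase of primary granules, was 400, 1088 and 613 CPM in the progenitors and 96.2, 171 and 143 CPM in CD150+ CD48- cells, a log2 difference of 2.36 (SE 0.12, edgeR adjusted p = 3.1e-12). In 1-hashtag progenitors Mpo was 376, 623 and 236 CPM and the log2 difference 1.90 (edgeR adjusted p = 1e-08). Elane, a primary granule protease, was 287, 1180 and 252 CPM against 68.6, 212 and 111 CPM (log2 difference 2.15, edgeR adjusted p = 1.5e-10). Cebpa, a factor of granulocyte commitment, rose by 2.40 on the log2 scale, and Irf8, a factor of monocyte and dendritic fate, by 2.36. For Irf8 the difference was 1.48 without both-hashtag cells (edgeR adjusted p = 0.0072), where the Mll3-deleted progenitors had 3.98 CPM, and 0.71 without the highest doublet scores as well (edgeR adjusted p = 0.39), so that call was lost. Markers of mature neutrophils moved with these genes: 7 of 8 tested rose, and the 9 markers summed to 16962, 16952 and 86821 CPM in the progenitors and 5458, 12491 and 45856 CPM in CD150+ CD48- cells. In 1-hashtag progenitors the sums were 9458, 4216 and 62711 CPM and 2 of 7 tested markers rose; Mmp8 was then at 0 in control and Mll3-deleted cells. Without both-hashtag cells and highest doublet scores none of 6 rose. The part of neutrophil RNA in the granulocyte-monocyte result was not tested. Other foreign markers were low in the progenitors: 8 macrophage and dendritic genes summed to 10.4 to 41.5 CPM, 6 mature B genes to 1.53 to 46.4 CPM, and 8 stromal and endothelial genes to 3.32 to 13 CPM, of which Col3a1, Kitl, Lepr and Cdh5 were at 0. Of the 8 T and NK cell genes (94.5 to 232 CPM), Nkg7 supplied nearly all, with 220, 168 and 92.8 CPM, and Gzma was at 0. Cd3e was at 0 in both deleted libraries.

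Of 7 basophil and mast cell genes tested, 6 were higher and 1, Slc18a2, lower, with a median log2 difference of 3.22. Cpa3, a mast cell carboxypeptidase, was 51.2, 10.8 and 187 CPM in the progenitors and 7.17, 1.28 and 4.54 CPM in CD150+ CD48- cells, a log2 difference of 3.28 (SE 0.25, edgeR adjusted p = 4e-09). Mcpt8, a basophil protease, was 71.5, 4.24 and 11.6 CPM against 3.86, 0.729 and 4.54 CPM, a log2 difference of 3.76 (SE 0.32, edgeR adjusted p = 1.7e-08). In 1-hashtag progenitors Mcpt8 was 22.8, 1.59 and 12.3 CPM, and the difference 2.15 (edgeR adjusted p = 0.001). The Mll3-deleted value is low in each case. Without both-hashtag cells and highest doublet scores only 3 genes of the list could be tested, of which 1 rose.

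Mitotic genes were higher for 18 of 20 tested (median log2 difference 0.53) and for 19 of 20 without both-hashtag cells. Ube2c, a ubiquitin enzyme of mitosis, was 303, 332 and 201 CPM in the progenitors and 152, 188 and 74.8 CPM in CD150+ CD48- cells (log2 difference 1.0, edgeR adjusted p = 3.2e-07). Mki67, a marker of dividing cells, was 547, 581 and 642 CPM against 365, 530 and 395 CPM (0.48, edgeR adjusted p = 0.0014). Of 20 S phase genes 5 were higher, and of 18 ribosome biogenesis genes 10, with medians of 0.22 and 0.29. Without both-hashtag cells it was 9 of 20 and 11 of 18. Among cell cycle regulators, Cdk6 rose by 0.73 while Ccnd1 fell by 0.91 and Ccnd2 fell by 0.61 on the log2 scale.

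Interferon response genes were lower for 12 of 15 tested, with a median log2 difference of -0.83, and again 12 without both-hashtag cells (median -0.98). Ifitm3, an antiviral membrane protein, was 461, 286 and 338 CPM against 850, 716 and 485 CPM in CD150+ CD48- cells (log2 difference -0.93, edgeR adjusted p = 1.7e-06). Ifi44 was 9.67, 5.66 and 13.3 CPM against 31.2, 22.4 and 47.6 CPM (-1.80, edgeR adjusted p = 8.4e-07). In the progenitors both transcripts were below their CD150+ CD48- level in every library. Of 17 cytokine receptors 6 rose and 3 fell, and without both-hashtag cells 4 of 16 rose and 2 fell. Ifngr1, the interferon gamma receptor, was 88.3, 140 and 167 CPM against 59.5, 47.7 and 72.6 CPM (1.14, edgeR adjusted p = 6.8e-06), so the receptor and the response genes moved in opposite directions.

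By the rule of largest change, the genes that led the rise beside those above were Tcrg-C1 (log2 difference 3.51), Gm15915 (3.08), Atp8b4 (2.84), Ccr2 (2.71), Tspo2 (2.68) and BC035044 (2.48). Ccr2, a monocyte chemokine receptor, was 4.07, 5.31 and 61.3 CPM and could not be tested without both-hashtag cells. Those that led the fall beside Procr, Hbb-bt and Ly6a were Tgm2, which fell by 2.80, Npdc1 by 2.24, Lhcgr by 2.15, Phf11d by 2.10, Tcf15 by 2.08, Nkx2-3 by 2.03, Gm4951 by 1.92, Itsn1 by 1.85 and Mycn by 1.83 on the log2 scale. Tcf15, a transcription factor of quiescent stem cells, was 13.7, 5.13 and 3.32 CPM in the progenitors against 40.5, 34.8 and 15.9 CPM. Mycn was 22.9, 19.1 and 19.9 CPM against 77.7, 76.0 and 61.2 CPM, with no overlap between the gates.

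Against CD150- CD48+ cells, the progenitors had higher platelet, erythroid and mitotic transcripts and lower lymphoid priming transcripts. Of 11005 genes tested, 631 (5.73%) were higher and 679 (6.17%) lower, 11.9% in either direction, and the median over all genes was 0.02. The counts were 269 and 460 without the control library, 179 and 219 without the Mll3-deleted library, and 774 and 883 without the Mll4-deleted library. With cells near the CD150 or CD48 limits left out, 354 were higher.

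Of 14 testable megakaryocyte genes 13 were higher and 1 lower, with a median log2 difference of 2.28. Without both-hashtag cells, where 5.06% of all genes were higher and 5.87% lower, it was 10 higher and 1 lower of 13 (median 1.78). Pf4 was 480, 228 and 217 CPM in the progenitors and 8.47, 6.71 and 4.61 CPM in CD150- CD48+ cells, a log2 difference of 5.51 (SE 0.12, edgeR adjusted p = 1.2e-21). Itga2b was 75.1, 34.5 and 79.6 CPM against 22.2, 6.53 and 39.2 CPM, a log2 difference of 1.80 (SE 0.15, edgeR adjusted p = 2.6e-09). Gp5, a platelet adhesion glycoprotein, was 28, 12.9 and 58.0 CPM against 5.12, 3.0 and 3.46 CPM, a log2 difference of 2.51 (SE 0.23, edgeR adjusted p = 1.3e-08). The gates were apart within each library for these genes, although the Mll3-deleted progenitor value of Itga2b lay below the Mll4-deleted value of CD150- CD48+ cells. Cavin2 had 24.9 to 34.1 CPM in the progenitors and at most 0.160 CPM in CD150- CD48+ cells, with 0 UMIs there in both deleted libraries. Gp9, Treml1, Itgb3, F2r and Cd9 rose as well. Selp, the adhesion receptor P-selectin, was the exception at 37.9, 13.6 and 9.95 CPM against 56.6, 31.4 and 40.4 CPM (log2 difference -0.90, edgeR adjusted p = 6.8e-05). Pf4, Itga2b, Gp9 and Gp5 are the genes whose windows are printed above.

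**Figure D3:**
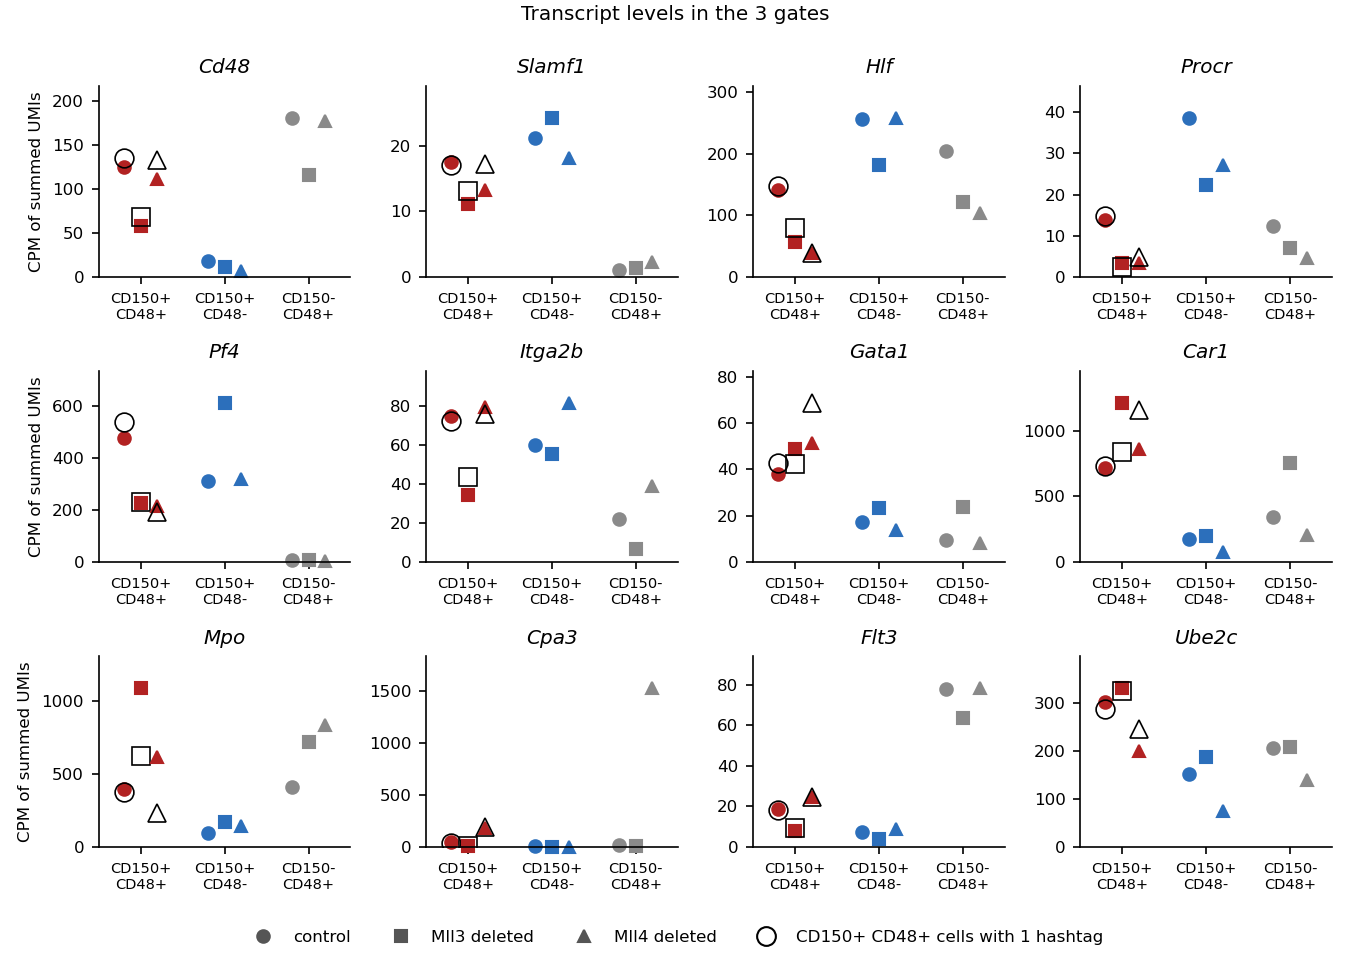
CPM of summed UMIs of 12 transcripts in 3 CD117+ Sca1+ gates. Filled symbols are the control (circle), Mll3-deleted (square) and Mll4-deleted (triangle) libraries and open symbols the CD150+ CD48+ cells with 1 hashtag. Pf4 lies between 217 and 480 CPM in CD150+ CD48+ cells and below 8.5 CPM in CD150- CD48+ cells, and Flt3 runs the other way.

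Erythroid genes were higher for 11 of 16 tested and lower for none (median log2 difference 0.85). Without both-hashtag cells it was 9 of 15 (median 1.10). Gata1 in the progenitors, at 38.2, 48.8 and 51.4 CPM, was above its 9.59, 23.7 and 8.07 CPM in CD150- CD48+ cells by 1.5 (SE 0.17, edgeR adjusted p = 3.8e-07). The cofactor Zfpm1, which pairs with GATA1, was 148, 162 and 106 CPM against 67.5, 72.9 and 19.6 CPM (log2 difference 1.23, edgeR adjusted p = 5e-09). Gfi1b, a repressor of the erythroid and megakaryocyte lineages, was 33.3, 33.2 and 23.2 CPM against 10.7, 16.6 and 11.5 CPM (1.27, edgeR adjusted p = 2.1e-06). Gata2 rose by 0.84 and Tal1 by 0.55. In all, 8 of 24 blood transcription factors were higher and 9 lower. Spi1, the myeloid and lymphoid factor PU.1, fell by 0.51 on the log2 scale.

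Of 12 lymphoid priming genes 7 were lower and none higher (median log2 difference -0.98), and 8 of 11 were lower without both-hashtag cells. Flt3, the receptor of lymphoid-primed progenitors, was 18.6, 7.96 and 24.9 CPM in the progenitors and 77.7, 63.4 and 78.4 CPM in CD150- CD48+ cells, a log2 difference of -2.39 (SE 0.15, edgeR adjusted p = 1.8e-11). Satb1, a chromatin organiser of lymphoid cells, was 17.1, 9.20 and 23.2 CPM against 65.2, 67.1 and 70.3 CPM, a log2 difference of -2.31 (SE 0.15, edgeR adjusted p = 3.7e-11). Dntt, the template-free DNA polymerase of lymphoid precursors, was 23.4, 18.6 and 1.66 CPM against 66.2, 86.4 and 143 CPM (-2.08, edgeR adjusted p = 5.9e-09). Each was lower in the progenitors of every library. Flt3 and Satb1 were still above the CD150+ CD48- level, by 1.23 (edgeR adjusted p = 0.0017) and 1.81 (edgeR adjusted p = 0.00012). In 1-hashtag progenitors Flt3 was 18.1, 9.14 and 24.5 CPM, against 7.44, 4.01 and 9.07 CPM in all CD150+ CD48- cells. Satb1 was 12.7, 3.98 and 19.6 CPM against 3.31, 3.46 and 9.07 CPM, so its Mll3-deleted levels were then close. The B-gene limit was the same in all gates, so B-lineage genes were not compared.

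Myeloid and stem cell genes split. Granulocyte-monocyte genes were higher for 1 of 18 tested and lower for 7 (median log2 difference -0.22). Mpo (log2 difference 0.11, edgeR adjusted p = 0.59) was not told apart from its level in CD150- CD48+ cells. Ms4a3, a marker of granulocyte and monocyte progenitors, rose by 0.84, and Csf3r, the G-CSF receptor, fell by 1.11 on the log2 scale. The neutrophil markers summed to 17844, 13105 and 69787 CPM in CD150- CD48+ cells, 4 of 8 tested were higher in the progenitors, and none of 7 was without both-hashtag cells. Of 17 stem cell genes 5 were higher and 5 lower. Vwf, the clotting factor carried by platelet-biased stem cells, was 18.6, 12 and 3.32 CPM against 1.12, 1.06 and 1.15 CPM (3.66, edgeR adjusted p = 3.7e-08, not testable without both-hashtag cells). Mllt3 and Pdzk1ip1 also rose, whereas Hlf, Mecom, Hoxa9, Ltb and Robo4 fell. Mitotic genes were higher for 15 of 20 (median 0.37), 19 of 20 without both-hashtag cells, with none lower. Of 20 S phase genes none passed in either direction. MHC class II genes were lower for 5 of 7 (median -0.71) and interferon response genes for 7 of 15 (median -0.50). Of 9 basophil and mast cell genes 1, Slc18a2, was higher, and none of 9 without both-hashtag cells. Ribosome biogenesis genes were higher for 7 of 18, and cytokine receptors for 3 of 18 with 7 lower, among them Il1r1, which fell by 1.95. Without both-hashtag cells 6 of 18 ribosome biogenesis genes were higher, 3 of 17 cytokine receptors were higher and 5 lower, and 6 of 6 MHC class II and 6 of 15 interferon response genes were lower. Rab27b (edgeR adjusted p = 0.054), Rhd (0.088) and Slc18a2 (0.094) then missed the threshold.

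Other genes that led the rise over CD150- CD48+ cells were Nupr1 (log2 difference 2.88), Tuba8 (2.32), Aldh1a1 (2.30), Tcrg-C1 (2.11), Mfsd2b (2.06), Apoe (2.06), Tgfbr3 (1.75) and Slc14a1 (1.75). Aldh1a1, a retinaldehyde dehydrogenase, was 30.5, 23.0 and 46.4 CPM against 4.96, 5.65 and 10.4 CPM. Apoe, a lipid carrier, was 619, 473 and 171 CPM against 96.4, 182 and 26.5 CPM, and all 3 of its progenitor values were above the control and Mll4-deleted values of CD150- CD48+ cells. Those that led the fall beside the lymphoid genes were Slc16a11, which fell by 2.78, Wfdc17 by 2.60, Ccl9 by 1.76, Ctss by 1.68, Hmga2 by 1.62, Cd244a by 1.6, Padi2 by 1.58, Tespa1 by 1.54 and Ahnak by 1.48 on the log2 scale. Cd244a, a SLAM family receptor like CD150 and CD48, was 9.93, 4.07 and 11.6 CPM against 25.6, 17.0 and 25.4 CPM.

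Shares of cells with a UMI showed how these transcripts were spread over single progenitors. Every cell was thinned to 3000 UMIs, which left out 4 Mll4-deleted progenitors as too shallow and none elsewhere. Pf4 was found in 18.0% (exact 95% interval 12.6% to 24.6%), 15.7% (10.3% to 22.4%) and 9.52% (3.58% to 19.6%) of the progenitors. It was found in 19.0%, 18.0% and 12.9% of CD150+ CD48- cells but in 1.16%, 2.71% and 1.77% of CD150- CD48+ cells. Erythroid cells (CD117+ Sca1- cells with at least 20 UMIs per 10000 from erythroid genes), which should lack Pf4, gave 1.04%, 1.06% and 0.717%, so the CD150- CD48+ shares were near background and the progenitor shares were not. Median UMIs per cell before thinning were 18112, 25080 and 8093 in the progenitors, 12267.5, 15067 and 4709.5 in CD150+ CD48- cells, 16034, 17214 and 5027 in CD150- CD48+ cells and 55263, 55329 and 17511 in the erythroid cells. Itga2b was found in 18.0%, 9.80% and 20.6% of the progenitors and in 1.35%, 0.384% and 1.08% of erythroid cells.

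Gata1 was found in 6.4%, 8.50% and 12.7% of the progenitors, against 3.16%, 3.8% and 2.86% of CD150+ CD48- cells and 0.291%, 2.33% and 0.885% of CD150- CD48+ cells. It was found in 22.9%, 25.4% and 31.9% of erythroid cells and 0.0608%, 0.106% and 0.241% of CD11b+ Gr1+ cells (CD117- cells with at least 100 counts of both antibodies). Car1 was found in 16.3%, 32.7% and 20.6% of the progenitors but also in 7.17%, 8.40% and 3.71% of these CD11b+ Gr1+ cells, which should lack it. Car1 shares in the other gates lay nearer to these CD11b+ Gr1+ shares, at 7.11%, 9.81% and 2.86% of CD150+ CD48- cells and 6.98%, 13.6% and 4.42% of CD150- CD48+ cells. The Mll3-deleted CD150- CD48+ share (9.63% to 18.4%) overlapped that of CD11b+ Gr1+ cells (6.71% to 10.4%) in its interval only. Flt3 was found in 8.14%, 1.31% and 7.94% of the progenitors, against 21.5%, 23.3% and 22.1% of CD150- CD48+ cells and at most 0.288% of erythroid cells. Hlf was found in 37.8%, 25.5% and 20.6% of the progenitors and in 49.4%, 44.6% and 51.4% of CD150+ CD48- cells. In CD150- CD48+ cells the Hlf shares were 44.5%, 29.8% and 23.0%. Mki67 was found in 50.0%, 63.4% and 71.4% of the progenitors, 22.9%, 39.2% and 37.1% of CD150+ CD48- cells and 40.4%, 46.9% and 50.4% of CD150- CD48+ cells. The Mki67 shares were 85.7%, 85.6% and 84.2% of the CD11b+ Gr1+ cells and 70.2%, 69.7% and 66.3% of erythroid cells. Mpo was found in 37.2%, 50.3% and 36.5% of the progenitors, 30.4%, 31.0% and 34.3% of CD150+ CD48- cells and 46.5%, 55.0% and 53.1% of CD150- CD48+ cells. It was also found in 11.7%, 16.9% and 18.6% of erythroid cells, which should lack it. Among 1-hashtag cells the Mpo shares were 33.3%, 44.0% and 30.4% of the progenitors and 30.8%, 29.7% and 35.4% of CD150+ CD48- cells. The intervals of the control and Mll4-deleted shares overlapped between these 2 gates, so the Mpo difference in CPM has no clear counterpart there in the share of cells. The Mll3-deleted intervals were apart over all cells (42.1% to 58.5% and 26.0% to 36.4%). Among 1-hashtag cells they overlapped narrowly (33.6% to 54.8% and 24.6% to 35.2%).

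**Figure D4:**
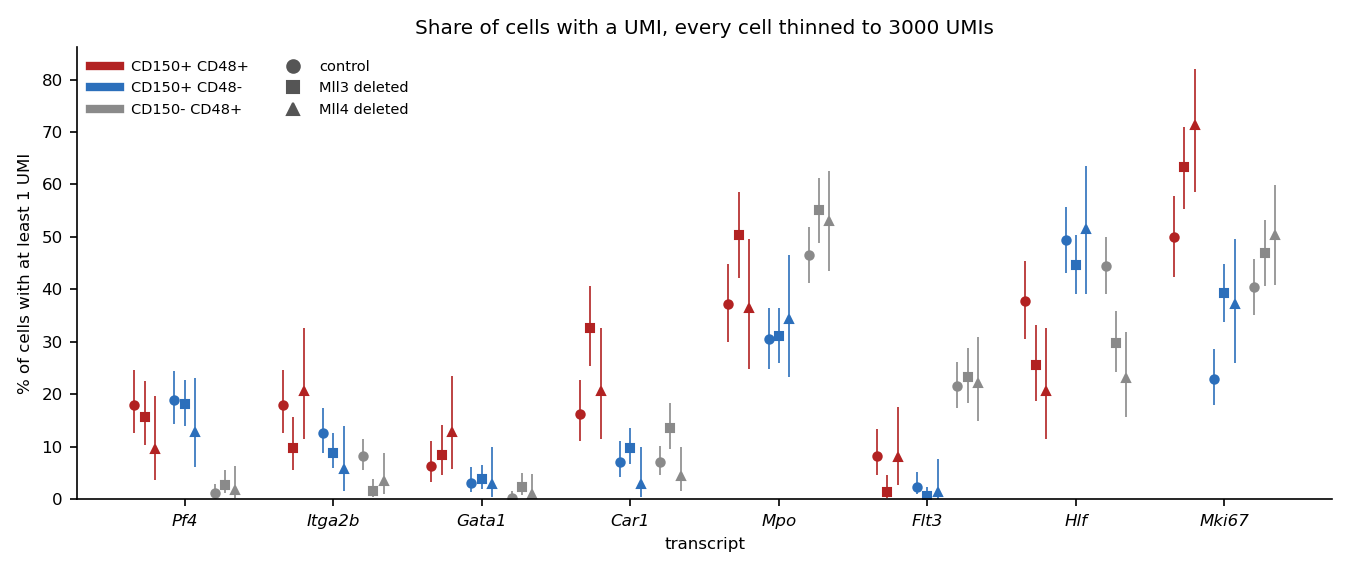
Percentage of cells with at least 1 UMI of 8 transcripts after thinning every cell to 3000 UMIs, in CD150+ CD48+ (red), CD150+ CD48- (blue) and CD150- CD48+ (grey) cells of 3 libraries. Lines are exact 95% binomial intervals. Mki67 reaches 71.4% and Pf4 at most 18.0% of the CD150+ CD48+ cells.

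Over all progenitors of the Mll3-deleted library, platelet and basophil transcripts were lower than in control and primary granule transcripts higher. As summed lists, however, the first 2 differences were seen in the Hashtag1-only cells and not, or hardly, in the Hashtag2-only cells. The megakaryocyte list summed to 1515 CPM in control and 539 CPM in Mll3-deleted Hashtag1-only cells, and to 877 and 827 CPM in Hashtag2-only cells. The basophil and mast cell list summed to 329 and 77.8 CPM in Hashtag1-only cells, and to 183 and 180 CPM in Hashtag2-only cells. The granulocyte-monocyte list summed to 2884 and 3962 CPM in Hashtag1-only cells, and to 2693 and 4861 CPM in Hashtag2-only cells. Of 9325 genes with at least 30 UMIs in either library, 59 (0.633%) were at least 2-fold higher and 276 (2.96%) at least 2-fold lower, 3.59% in either direction, and the median log2 ratio was -0.08 (ratios of CPM with 1 CPM added). Scaling by TMM in place of total counts raises all these ratios by 0.11. These counts have no replicate check. Among 1-hashtag cells 17 genes (0.207%) were at least 2-fold higher and 2.87% lower.

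Of 15 megakaryocyte genes measured, 11 were at least 2-fold lower in Mll3-deleted progenitors, with a median log2 ratio of -1.10. Among 1-hashtag cells it was 6 of 14 (median -0.84). Pf4, at 480 CPM in control and 228 CPM in Mll3-deleted progenitors, had a log2 ratio of -1.07 (-1.18 to -0.97), and of -1.22 among 1-hashtag cells. Itga2b, at 75.1 and 34.5 CPM, had a log2 ratio of -1.10 (-1.39 to -0.86), and of -0.71 among 1-hashtag cells. In Hashtag1-only cells Pf4 was 732 and 175 CPM, but 342.5 and 351 CPM in Hashtag2-only cells. Itga2b was 90.6 and 32.8 CPM in Hashtag1-only cells, but 53.3 and 67.0 CPM in Hashtag2-only cells. Treml1 and Rab27b, platelet granule genes, had log2 ratios of -1.14 and -1.32, and -1.61 and -1.49 among 1-hashtag cells. In CD150+ CD48- cells of the same libraries none of 15 megakaryocyte genes was 2-fold lower (median -0.12), with 1.25% of all genes lower there. In CD150- CD48+ cells 1 of 8 was (median -0.64), with 1.16% of all genes lower. Pf4 itself was higher in CD150+ CD48- cells of the Mll3-deleted library, at 614 CPM against 313. The difference between gates was not tested.

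Of 9 basophil and mast cell genes, 7 were at least 2-fold lower (median log2 ratio -2.15), and 6 of 8 among 1-hashtag cells, with 1 higher. Cpa3 was 51.2 CPM in control and 10.8 CPM in Mll3-deleted progenitors, a log2 ratio of -2.15 (-2.68 to -1.83), and -1.64 among 1-hashtag cells. It was 53.9 and 0.585 CPM in Hashtag1-only cells, but 26.7 and 37.2 CPM in Hashtag2-only cells. Ms4a2 and Fcer1a, subunits of the IgE receptor, were 21.9 and 14.8 CPM in control and 1.24 and 0.707 CPM in Mll3-deleted cells. Cma1, a mast cell chymase with 33 UMIs in control and 1 in Mll3-deleted cells, had a log2 ratio of -3.00 (-10.92 to -2.99). In control Cma1 was 0 CPM in Hashtag1-only and 22.6 CPM in Hashtag2-only cells, and with Mll3 deleted 0 CPM in both. For Cma1, unlike the summed list, the difference was thus seen in the Hashtag2-only cells. Prss34, a basophil protease, had 229 UMIs in control and 0 in Mll3-deleted progenitors, at least 110-fold lower against a floor of 3 counts per library. Its control level was 58.3 CPM in all progenitors but 0.335 CPM in 1-hashtag cells, so this difference rests on both-hashtag barcodes. Cpa3 was found in 10.5% of control (6.32% to 16%) and 1.96% of Mll3-deleted progenitors (0.406% to 5.62%), against 0.832% and 0.865% of erythroid cells.

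Primary granule genes were higher. Elane was 287 and 1180 CPM, a log2 ratio of 2.04 (1.95 to 2.13), and 288 and 840 CPM among 1-hashtag cells. It was also higher in CD150+ CD48- cells (68.6 and 212 CPM, log2 ratio 1.61) and CD150- CD48+ cells (187 and 550 CPM, 1.55). In the other filtered cells Elane was 1243 and 1414 CPM (0.19). Mpo had a log2 ratio of 1.44 (1.36 to 1.53), 0.73 among 1-hashtag cells, and Prtn3 and Ctsg had ratios of 1.40 and 1.30, 0.93 and 0.85 among 1-hashtag cells. Of 17 granulocyte-monocyte genes 7 were at least 2-fold higher (median 0.50), but among 1-hashtag cells 1 of 14 was higher and 2 lower (median 0.12). Of 14 stem cell genes 5 were at least 2-fold lower (median -0.61), 3 of 13 among 1-hashtag cells. Hlf was 142 and 57.5 CPM, a log2 ratio of -1.29 (-1.51 to -1.11), and -0.90 among 1-hashtag cells. Of 16 erythroid genes none was 2-fold apart (median 0.61, 0.09 among 1-hashtag cells). Of 12 immediate early genes 5 were lower (median -0.67), Fos and Jun among them with log2 ratios of -1.70 and -1.21. MHC class II genes were higher for 3 of 6 (median 0.65), but lower for 1 of 4 among 1-hashtag cells (median -0.80).

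Beside these lists, the largest differences from control by the rule were in Nefh (28 and 0.531 CPM, log2 ratio -4.24, -8.02 to -4.14, from 3 UMIs in the deleted cells), Tjp1 (38.7 and 4.78 CPM, -2.78), Mmrn1 (17.1 and 2.48 CPM, -2.38), Clec4e (-2.34) and Ccl4 (-2.34). Tjp1 encodes a tight junction scaffold, Nefh a neurofilament, and Mmrn1 a platelet and endothelial protein. Slc15a2 had 32 UMIs in control and 0 in Mll3-deleted progenitors, at least 15.4-fold lower. Gm10076 (264 and 858 CPM, 1.69), Hist1h2ap (218 and 691 CPM, 1.66), Pttg1 (28.3 and 97.5 CPM, 1.75) and Xlr (2.09) were higher. Ly6d, an antigen of early B-biased lymphoid progenitors, was at least 8.11-fold higher (0 against 35 UMIs), and the kappa constant gene Igkc at least 12.3-fold (0 against 53 UMIs). Without both-hashtag cells and highest doublet scores both had a log2 ratio of 0.65, with an interval whose lower bound was -5.03. Ly6d was 14.6 CPM in the Mll3-deleted Hashtag1-only cells and 0 in the Hashtag2-only cells. Both genes were also higher in the other filtered cells of the Mll3-deleted library. There Igkc was 3.76 CPM in control and 141 CPM with Mll3 deleted, and Ly6d 6.73 and 16.8 CPM. The B-lineage genes Igll1, Vpreb3, Cd79a, Ebf1 and Vpreb1 are also among the highest, but the gate limited them. Of the 24 genes named by the rule, 22 kept their sign among 1-hashtag cells and 19 stayed at least 2-fold apart. In 15 of the 24 the Hashtag1-only and Hashtag2-only cells of the Mll3-deleted library both lay beyond those of control, in either direction. Vpreb1, named as higher, is counted there although both groups lay below control. It was 4.68 and 4.96 CPM in them, against 5.25 and 6.15 CPM in control. At least 2-fold differences of the same sign were seen for 12 of the 24 in the other filtered cells, for 14 in CD150+ CD48- and for 15 in CD150- CD48+ cells. In the other filtered cells the log2 ratios were -3.95 for Nefh, -2.07 for Tjp1, -2.31 for Slc15a2, 1.63 for Hist1h2ap and 1.985 for Pttg1. Those differences were thus not particular to the progenitors. Ccl4 had a log2 ratio of -0.44 there.

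**Figure D5:**
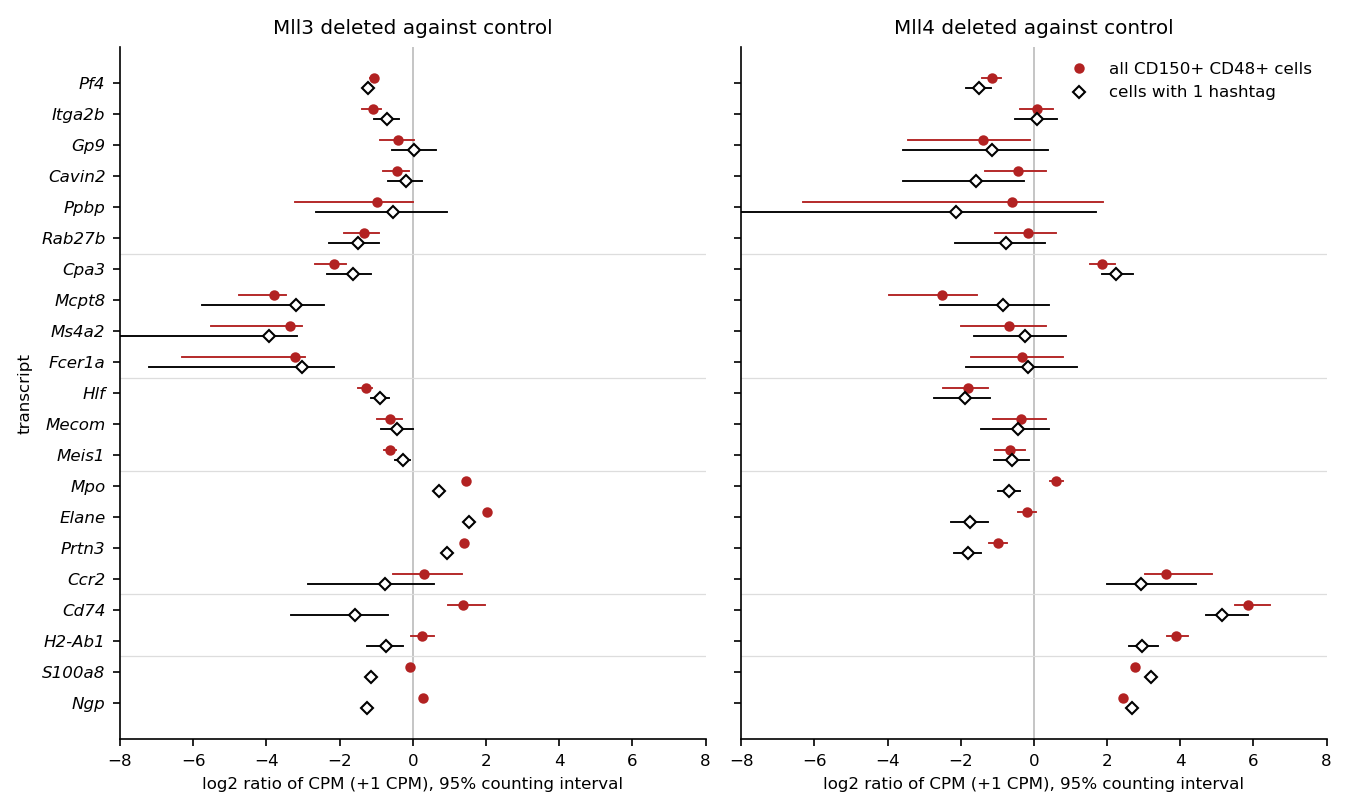
Log2 ratio of CPM (1 CPM added) of each deleted library to control in CD150+ CD48+ cells for 21 transcripts, with 95% counting intervals. Filled circles are all cells and open diamonds cells with 1 hashtag; 2 intervals run past the left edge of the axis. Pf4 lies near -1.1 in both deletions, and Cd74 at 5.84 in the Mll4-deleted library.

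In the Mll4-deleted library, MHC class II and neutrophil transcripts of the progenitors were far above control and several stem cell transcripts below. Of 8797 genes measured, 467 (5.31%) were at least 2-fold higher and 609 (6.92%) lower, 12.2% in either direction, with a median log2 ratio of 0.02. Among 1-hashtag cells 5.12% were higher and 7.50% lower. Cd74, the invariant chain of MHC class II, was 10.9 CPM in control and 683 CPM in Mll4-deleted progenitors, a log2 ratio of 5.84 (5.51 to 6.45). H2-Aa was 8.40 and 466 CPM, a log2 ratio of 5.63, and H2-Ab1 35.1 and 532 CPM, 3.88. Of 6 MHC class II genes measured, 4 were higher, also among 1-hashtag cells (medians 4.76 and 3.89). They were higher for 4 of 6 in CD150+ CD48- cells (median 2.26), 5 of 6 in CD150- CD48+ cells (3.65) and 5 of 7 in the other filtered cells (1.68), where 5.67%, 6.75% and 6.26% of all genes were higher. A like difference was thus present in all these populations. Ccr2 (4.07 and 61.3 CPM, 3.62), Naaa (3.84), Plbd1 (3.19) and Hspa1a (3.65) were also among the highest. S100a8 was 4407 and 30047 CPM, a log2 ratio of 2.77 (2.74 to 2.80), and 6 of 6 neutrophil markers were higher (median 2.34), 8 of 9 in the other filtered cells (1.43). These differences came with the higher neutrophil level of the whole library, whose part was not tested.

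Of 14 stem cell genes 6 were at least 2-fold lower in Mll4-deleted progenitors (median log2 ratio -0.81), and 6 of 13 among 1-hashtag cells (-0.94). In CD150+ CD48- cells it was 2 of 18 (median -0.10), with 6.52% of all genes lower. The difference between the gates was not tested. Hlf was 142 and 39.8 CPM, a log2 ratio of -1.81 (-2.49 to -1.25), and -1.89 among 1-hashtag cells. In CD150+ CD48- cells Hlf stood at 257 and 259 CPM in the same libraries. In CD150- CD48+ cells thinned to 3000 UMIs, Hlf was found in 44.5% of control and 23.0% of Mll4-deleted cells. A lower Hlf share was thus also seen in that gate. Mllt3, a chromatin reader of stem cells, was 35.4 and 16.6 CPM (log2 ratio -1.05), and Ltb and Vwf had log2 ratios of -2.02 (-4.08 to -0.78) and -2.18 (-5.56 to -0.58). Procr, at 13.7 and 3.32 CPM (-5.13 to -0.13), and Esam, at 17.6 and 6.63 CPM (-3.32 to 0.02), also lay at least 2-fold lower. The Mll4-deleted values of Vwf, Procr, Esam and Ltb rest on 2 to 4 UMIs each. Mecom, at 40.2 and 31.5 CPM, had an interval that spans no change (-1.12 to 0.34).

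Platelet genes were uneven under Mll4 deletion, with 4 of 15 lower, 1 higher and a median log2 ratio of 0.08. Pf4 was 480 and 217 CPM (-1.14, and -1.49 among 1-hashtag cells), whereas Gp5 was 28 and 58.0 CPM (1.03, and 1.61 among 1-hashtag cells). Itga2b was 75.1 and 79.6 CPM, with an interval of -0.39 to 0.53. Of 15 erythroid genes 4 were lower (median -0.18). Cpa3 was 51.2 and 187 CPM, a log2 ratio of 1.85 (1.53 to 2.21), opposite to its ratio in the Mll3-deleted library. Both ratios share the control library. Cpa3 was also higher in the Mll4-deleted library in CD150- CD48+ cells (18.7 and 1530 CPM) and the other filtered cells (36.2 and 216 CPM). In CD150+ CD48- cells it was 7.17 and 4.54 CPM. Granulocyte-monocyte genes were higher for 5 of 16 (median 0.52), but among 1-hashtag cells 1 of 13 was higher and 3 lower (median -0.45). Elane was 252 CPM in all Mll4-deleted progenitors and 85.9 CPM in those with 1 hashtag, against 287 and 288 CPM in control.

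The remaining genes lower by the rule were Ifitm1 (291 and 64.7 CPM, log2 ratio -2.15), Apoe (619 and 171 CPM, -1.85), H1fx (119 and 26.5 CPM, -2.12), Lat (-3.16, -6.56 to -1.63), Klk8 (-2.74), Cela1 (-3.40, -9.34 to -1.51), Myl10 (-2.29) and Mcpt8 (-2.52). Ifitm1, a membrane protein of early progenitors, kept a log2 ratio of -2.11 among 1-hashtag cells. Nefh, with 110 UMIs in control and 0 in the Mll4-deleted progenitors, was at least 5.63-fold lower, so it was low in both deleted libraries. Trp53rkb and Selenom were at least 3.33-fold and 3.27-fold lower. Wfdc21 (142 and 1432 CPM, 3.33), Orm1 (3.58) and Gm10076 (264 and 1738 CPM, 2.71) were higher. All 24 genes kept their sign among 1-hashtag cells, and 22 stayed at least 2-fold apart. In 22 of 24 both hashtag groups of the Mll4-deleted library lay beyond both of control. The other filtered cells showed an at least 2-fold difference of the same sign for 21 of the 24.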

How the data were processed

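RNA and 15 antibody features were read in 4 libraries of sorted mouse marrow, and 3 of them enter the comparisons. The deposited values are UMI counts per gene and antibody for each barcode, made by the authors with Cell Ranger 6.1.2 on mm10, per the submitters' processing notes. Members and gene lists were chosen with earlier results of these data known. Likely doublets were kept in the main results and left out in alternatives. These left out cells above both hashtag thresholds of 81 to 168 counts, or the highest Scrublet scores, 0.8% per 1000 barcodes. Doublets of cells with the same hashtag stay among the 1-hashtag cells. Counts were summed per library and gate (Python 3.11.15, scanpy 1.11.5, scipy 1.17.1). Gates were compared with edgeR 4.0.16 (quasi-likelihood, R 4.3.3) with the library as block, because gates of a library come from the same sample. Labels do not say whether libraries came from separate animals, so p-values measure the spread between libraries. Deletions were compared by log2 ratios of CPM with a pseudocount of 1 CPM, for genes reaching 30 counts in 1 of the libraries, with exact conditional 95% intervals. In simulated data 69.1% of 2-fold and 98.1% of 4-fold changes were recovered against CD150+ CD48- cells (10780 genes), and 72.4% and 92.6% against CD150- CD48+ cells (11005 genes). The simulated libraries shared the same gene means apart from the set changes, with a fixed spread for all genes. They held no genotype differences and no doublets, so these shares do not measure recovery in the real libraries. Genes are named if they belong to a list or are among the 12 with the largest rise or fall. Between gates these had to pass an adjusted p of 0.05, with the same direction in all 3 libraries and at least 20 CPM in the higher gate. Between deletions they had to differ at least 2-fold, ranked by the interval bound nearest 0, without mitochondrial and Y-linked genes, Xist and Tsix. Other X-linked genes, such as Xlr, stayed in. DESeq2 1.42.0 and other count minimums, pseudocounts, scalings and cell filters were alternatives. Some genes of the lists are counted but not reported by name here.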

Additional observations from a re-analysis of the deposited data

Results flagged for a closer look

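Mcpt8, a basophil protease, differed in opposite directions between the Mll4-deleted and the control library in 2 gates. In CD150+ CD48+ progenitors its log2 ratio to control was -2.52 (-3.95 to -1.56), with control cells at 71.5 CPM and Mll4-deleted cells at 11.6 CPM. In CD150- CD48+ cells it was 3.33 (3.01 to 3.85), at 13 and 140 CPM. The difference between the gates was not tested. Among 1-hashtag progenitors Mcpt8 was 22.8 and 12.3 CPM, a log2 ratio of -0.84 with an interval that spans no change (-2.56 to 0.40). It was 38.1 and 0 CPM in Hashtag1-only progenitors, but 6.84 and 20.3 CPM in Hashtag2-only ones. The lower level in Mll4-deleted progenitors was thus not clear without both-hashtag barcodes.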

How the results depend on the processing

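Against CD150+ CD48- cells, DESeq2 called 314 genes higher and 272 lower, and the fit with no replicate block 21 and 22. Leaving out 1 library at a time gave 364 to 1355 higher and 310 to 1269 lower. Without the highest Scrublet scores it was 695 and 664, and without both-hashtag cells as well 635 and 585, where the median of the neutrophil list was -0.029. Against CD150- CD48+ cells, DESeq2 called 133 and 170 and the fit with no replicate block 4 and 1. Leaving out 1 library gave 179 to 774 higher and 219 to 883 lower, and leaving out cells near the limits 354 higher.

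For Mll3 deletion the counts of genes 2-fold higher and lower were 14 and 49 with a pseudocount of 10 CPM, 24 and 89 with a minimum of 100 counts, 142 and 630 with a minimum of 1, and 38 and 86 with cells thinned to 3000 UMIs. The higher count was 33 without the highest Scrublet scores, 99 without cells near the limits, 17 without both-hashtag cells and 27 without both kinds. The B-lineage genes limited by the gate changed sign: Vpreb3 (-0.037) and Vpreb1 (-0.21) without the highest Scrublet scores, Igll1 (-0.42) and Vpreb1 (-0.21) without both-hashtag cells, and Igll1 (-0.56), Vpreb3 (-0.68), Cd79a (-0.45), Ebf1 (-0.44) and Vpreb1 (-0.47) without both kinds. The MHC class II median was -0.80 without both-hashtag cells and -0.77 without both kinds. For Mll4 deletion the counts were 227 and 147, 202 and 219, 1531 and 1603, and 109 and 167 under the same 4 settings. The granulocyte-monocyte median was -0.48 without the highest Scrublet scores, -0.45 without both-hashtag cells and -0.69 without both kinds.

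The share of progenitors with limits raised 1.5-fold was 1.24% in control, 1.45% in the Mll3-deleted and 0.743% in the Mll4-deleted library. Without the highest Scrublet scores it was 1.78% and 1.42% in the first 2, without both-hashtag cells 1.88% and 1.52%. As a share of CD117+ Sca1+ cells it was 19.7%, 17.0% and 18.4%, and with limits at control percentiles 4.21% in the Mll4-deleted library. The cause of these shifts was not tested, apart from the smaller number of genes under the stricter count minimums and of cells under the cell filters. The both-hashtag alternatives were chosen after seeing the data. Of the values of single genes and lists under these settings, 1549 kept their direction and side of the threshold, 426 moved, 44 lost the threshold and 15 changed sign. Of the counts and shares, 55 stayed within the same range and 51 moved. The Mll4-deleted progenitors, with 603129 UMIs in all, limit every ratio to that library.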

Other observations

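The same gate in the Mll3/4-deleted library held 10 cells. Of its 2859 CD117+ Sca1+ cells 2836 were at or above the B-gene limit, against 32 of 905 in control, 24 of 925 in the Mll3-deleted and 19 of 383 in the Mll4-deleted library. These 10 cells enter no comparison.

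Tcrg-C1, a constant segment of the T cell receptor gamma locus, was higher in the progenitors than in both neighbouring gates, at 5.09, 9.02 and 53.1 CPM. Gm10076 was higher in both deleted libraries in every gate. It stood at 264, 858 and 1738 CPM in the progenitors, 272, 815 and 1769 CPM in CD150+ CD48- cells and 260, 816 and 1633 CPM in CD150- CD48+ cells of the control, Mll3-deleted and Mll4-deleted libraries.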
